A study of Mus musculus with 6 samples.

Results

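The subunits of the respiratory chain and of ATP synthase were followed as mRNAs in spheroids of 4T1, a cell line from a mouse mammary carcinoma. Members were the protein-coding genes of the deposited table whose GENCODE M21 symbols name subunits of complexes I to V, which gave 99 of 48820 listed gene identifiers. Of these, 86 lie in the nucleus and 13 on the mitochondrial genome. The membership rule used names only and no measured value. Expression was compared between 3 libraries labelled LATS1/2 double knockout (dKO) and 3 libraries labelled wild type (WT). Both groups were 4T1 spheroids kept in RPMI with serum. The labels do not say how the dKO line was made, whether it is a single clone, or whether the 3 biological replicates of a group were separate cultures, so p-values here gauge only how far these libraries differ from one another, which may be technical. LATS1 and LATS2 are Hippo kinases that keep the coactivators YAP and TAZ in check.

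Complex I (NADH dehydrogenase) and complex II (succinate dehydrogenase) pass electrons to ubiquinone, complex III passes them to cytochrome c, and complex IV (cytochrome c oxidase) reduces oxygen. Complexes I, III and IV pump protons, and the gradient drives ATP synthase, called complex V here. Complex II is made from nuclear genes alone, while the others join nuclear subunits to core subunits read from mitochondrial DNA, so that each of them needs transcripts of both genomes.

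Total counts per library ran from 38194478 to 42486146 in dKO and from 40150225 to 49630116 in WT. The members held 3.52% to 3.68% of all counts in dKO libraries and 3.48% to 3.62% in WT libraries. Levels are counts scaled to library size with TMM factors (CPM), unless given per transcript length (TPM). Lats1 averaged 50.9 ± 2.55 CPM in dKO and 153 ± 6.36 CPM in WT, but Lats2 averaged 77.9 ± 12.5 CPM in dKO libraries and 27.2 ± 4.01 CPM in WT libraries (SD, n = 3), which is higher in dKO. The Lats2 level therefore goes against its label, although gene counts do not show small deletions, and every direction below is between the libraries labelled dKO and WT. dKO replicate 3 and WT replicate 2 stood apart within their groups, with Pearson correlations of log2(CPM + 1) to the other libraries of 0.991 and 0.991 for dKO replicate 3 and of 0.991 and 0.989 for WT replicate 2, against 0.995 between the other dKO libraries and 0.996 between the other WT libraries. Epithelial markers summed to 4069 to 4658 CPM in dKO and 5357 to 5456 CPM in WT, with 2 of 7 tested higher, 4 lower and Krt5 at 0. Leukocyte markers summed to 76.9 to 209 CPM in dKO and 3.30 to 16.1 CPM in WT, with 3 of 3 tested higher, mostly through Csf1r, while Ptprc stayed at or below 0.418 CPM and Cd3e and Ly6g were at 0. Fibroblast markers summed to 4.47 to 7.49 CPM in dKO and 37.2 to 59.1 CPM in WT, with 1 of 3 tested higher, 2 lower, and Lum and Thy1 at 0. Endothelial markers did not exceed 1.03 CPM in sum in dKO and 1.46 CPM in WT. The part of these markers in the results below was not tested, and in bulk RNA a change in cells of a type cannot be told apart from a change in RNA per cell.

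Nuclear-encoded subunits were mostly higher in dKO, and the mitochondrial mRNAs were not. Of the 86 nuclear members, 79 had enough counts to be tested. Of these 47 (59.5%) rose, 5 fell and 27 missed an adjusted p of 0.05 in edgeR's quasi-likelihood test. Without Cox6a2, which had no count in WT, 46 of 78 rose and 5 fell. Over all genes tested in this comparison 28.6% were called higher and 28.7% lower, and 57.3% in either direction. Among the 8130 tested genes with a mean of at least 20 CPM the shares were 36.3% higher and 32.3% lower. The median log2 fold change, given as dKO minus WT throughout, was 0.34 over the 79 nuclear members and -0.005 over all 15807 tested genes. All 13 mitochondrial mRNAs were tested, and 1 rose, 3 fell and 9 did not pass. Their median was -0.03. The lowest dKO library lay above the highest WT library for 53 of the 79 nuclear members and for 32.7% of all genes, and the highest dKO library lay below the lowest WT library for 8 nuclear members and for 33.0% of all genes. Without dKO replicate 3 and WT replicate 2, the libraries that stood apart, 52 nuclear members rose and 9 fell, and 3 mitochondrial mRNAs (mt-Co2, mt-Nd1 and mt-Atp6) rose and 4 (mt-Co1, mt-Co3, mt-Cytb and mt-Nd4) fell. That fit called 10139 of 16274 tested genes in either direction, slightly more of them higher than lower. With all libraries 9060 of 15807 were called, so calls were added over all genes as well as among the members. Whether the members gained calls at another rate was not tested. Tested against a change of 1.5-fold, 15 nuclear members and 13.9% of all genes were called higher. No nuclear member and 14.9% of all genes were called lower. Cox6a2 was among the 15.

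**Figure D1:**
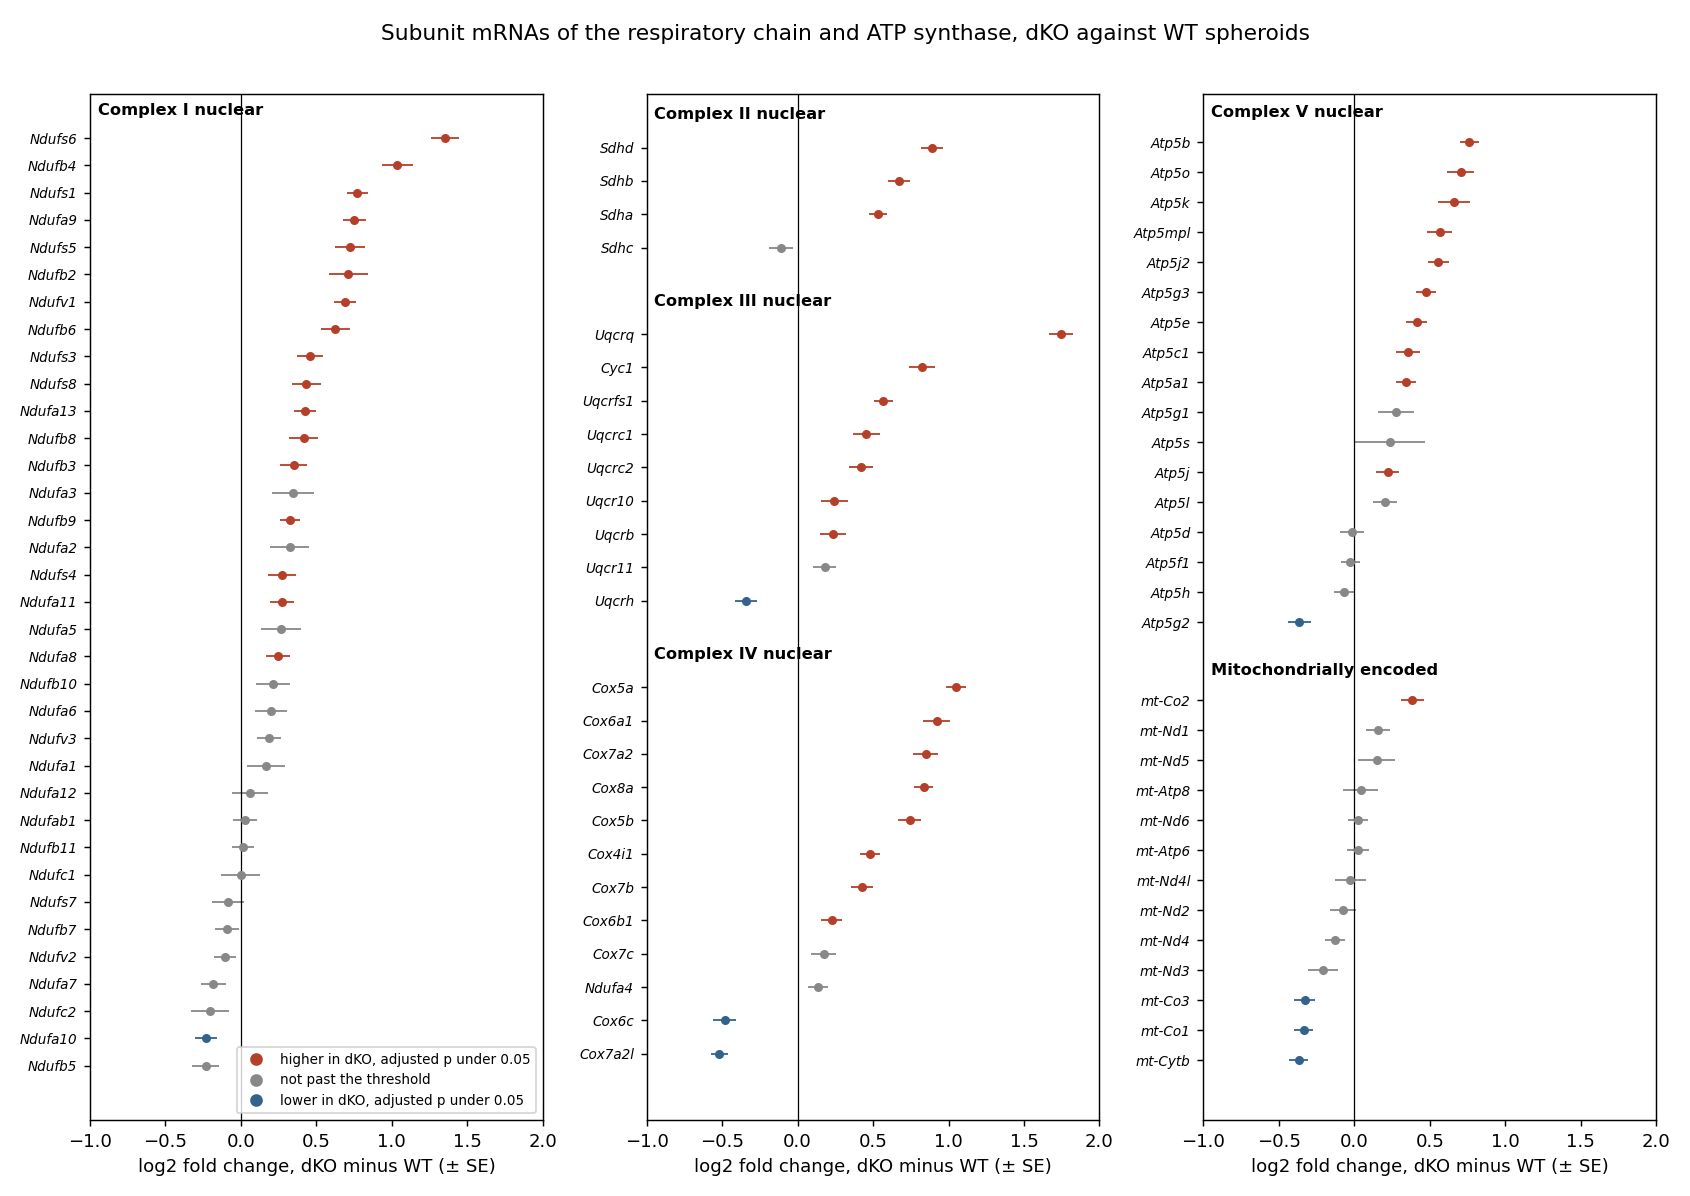
Log2 fold change, dKO minus WT, of tested members by complex and genome, with bars for ± 1 SE (edgeR, 3 libraries a group). Red points passed an adjusted p of 0.05 as higher in dKO, blue points as lower and grey points did not pass. The nuclear panels lie mostly right of 0, with Uqcrq farthest at 1.75, and the mitochondrial mRNAs lie on both sides of 0 between -0.37 and 0.38. Cox6a2, at 0 in every WT library, is left out.

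Summed over the 86 nuclear members, the level was 10722, 10684 and 10848 CPM in dKO libraries, against 7940, 8009 and 8046 CPM in WT, a ratio of 1.34. The 13 mitochondrial mRNAs summed to 25813, 26046 and 23920 CPM in dKO libraries, against 27060, 26921 and 28652 CPM in WT, a ratio of 0.917. The ranges do not overlap in either sum, and they run in opposite directions. Counts on mitochondrial mRNAs per count on nuclear members were 2.41, 2.44 and 2.21 in dKO libraries, against 3.41, 3.36 and 3.56 in WT. With the counts of near-identical nuclear copies added, the ratio of the mitochondrial sums was 0.934. Within complexes the nuclear sums were 1.30-fold higher in dKO for complex I, 1.42-fold for complex II, 1.43-fold for complex III, 1.33-fold for complex IV and 1.35-fold for complex V. The mitochondrial sums had ratios of 1.01 for complex I, 0.774 for complex III, 0.876 for complex IV and 1.02 for complex V. Their ranges overlapped in complexes I and V, and dKO lay below WT in complexes III and IV alone.

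Upstream sequences of 69 of the 86 nuclear members were found in RefSeq (GRCm38.p6), as 300-base stretches from 250 bases before to 50 bases after the start of the gene in RefSeq, which can differ from the start in GENCODE M21. The stretches of 4 members are shown because these genes mark the rises and falls described below. They are Ndufs6 (chr13:73328433-73328732, minus strand), Cox5a (chr9:57520982-57521281, plus strand), Cox6a1 (chr5:115348909-115349208, minus strand) and Uqcrh (chr4:116075021-116075320, minus strand), each read 5′ to 3′ along the gene. Capitals mark matches, on either strand, to letters from the known binding sites of NRF1 (GCATGCG) and the ETS factors that include GABPA (CCGGAAG), both regulators of respiratory genes, of YY1 (AAGATGG), and of the TEAD factors through which YAP and TAZ act (GGAATG).
Ndufs6: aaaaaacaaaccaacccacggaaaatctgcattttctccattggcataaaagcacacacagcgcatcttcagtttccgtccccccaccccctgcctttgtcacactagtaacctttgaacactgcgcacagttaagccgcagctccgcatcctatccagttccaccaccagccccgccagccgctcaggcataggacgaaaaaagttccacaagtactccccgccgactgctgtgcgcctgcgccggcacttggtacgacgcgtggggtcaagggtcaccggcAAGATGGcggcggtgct
Cox5a: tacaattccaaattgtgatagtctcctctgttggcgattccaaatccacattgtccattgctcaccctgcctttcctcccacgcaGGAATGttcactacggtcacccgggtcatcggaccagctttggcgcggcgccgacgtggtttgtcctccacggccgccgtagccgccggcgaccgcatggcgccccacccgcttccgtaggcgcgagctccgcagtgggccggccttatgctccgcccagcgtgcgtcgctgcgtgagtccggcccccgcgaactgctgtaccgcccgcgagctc
Cox6a1: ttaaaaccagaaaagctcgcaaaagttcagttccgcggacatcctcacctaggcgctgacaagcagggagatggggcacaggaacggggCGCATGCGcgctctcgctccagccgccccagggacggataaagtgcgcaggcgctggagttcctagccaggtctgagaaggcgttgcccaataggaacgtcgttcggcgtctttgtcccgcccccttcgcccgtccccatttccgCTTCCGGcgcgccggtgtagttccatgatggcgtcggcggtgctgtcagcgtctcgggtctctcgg
Uqcrh: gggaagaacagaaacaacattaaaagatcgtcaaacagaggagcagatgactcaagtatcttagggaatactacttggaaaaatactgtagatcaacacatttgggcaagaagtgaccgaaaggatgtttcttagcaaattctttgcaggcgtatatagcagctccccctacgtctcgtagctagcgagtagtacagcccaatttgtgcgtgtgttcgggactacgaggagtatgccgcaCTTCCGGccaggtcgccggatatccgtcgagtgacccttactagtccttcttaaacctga
The YY1 letters of Ndufs6 begin at position 34, counted from 1 at the start of the gene, and the TEAD letters of Cox5a begin 165 bases before the start. Cox6a1 holds overlapping NRF1 letters on both strands, with first bases 160 and 161 bases before the start, and ETS letters from 16 bases before it. Uqcrh, a member that fell, holds ETS letters from 10 bases before the start. Among the 69 members, the NRF1 letters were in 15.9%, the ETS letters in 23.2%, the YY1 letters in 15.9% and the TEAD letters in 10.1%. Over all 32851 stretches of the same length the shares were 3.58% for NRF1, 8.86% for ETS, 6.34% for YY1 and 14.7% for TEAD. The ETS letters were in 11 of 36 members that rose, 1 of 4 that fell and 4 of 25 that did not pass, and the NRF1 letters in 7, 1 and 3 of the same groups. The YY1 letters were in 6, 0 and 5 of these groups and the TEAD letters in 4, 0 and 3. A match describes the letters only.

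Complex I has a peripheral arm that oxidizes NADH and a membrane arm that pumps protons, and all 36 of its nuclear members were tested. Of these 18 rose, 1 fell and 17 did not pass. Over all tested genes 28.6% were called higher and 28.7% lower, shares that apply to the counts of each complex. The median log2 fold change was 0.27. With a correction for GC content and transcript length 17 were called higher and 6 lower, and without dKO replicate 3 and WT replicate 2 together 21 were called higher and 4 lower. The 7 nuclear core subunits, which carry the flavin, the iron-sulphur clusters and the quinone site, had 5 rises and no fall in the uncorrected fit. Ndufs1, the large iron-sulphur core subunit, was at 159, 172 and 169 CPM in dKO libraries, against 98.3, 93.6 and 101 CPM in WT (log2 fold change 0.77 ± 0.07 SE, edgeR adjusted p = 2.01e-05). Every dKO library lay well above every WT library. Ndufv1, which binds NADH and the flavin, rose by 0.69 on the log2 scale. The core subunit Ndufv2 did not pass, at -0.11 ± 0.07, and was called lower with the correction (-0.35, edgeR adjusted p = 0.000908).

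Among the 29 accessory members of complex I, which surround the core, 13 rose (44.8%), 1 fell and 15 did not pass. Of all tested genes with a mean of at least 20 CPM, 36.3% were higher and 32.3% lower. The share of rises among accessory members is thus not far above that of such genes. Ndufs6, a zinc-binding accessory subunit of the peripheral arm whose upstream sequence is given above, had the largest rise of the complex. Its levels were 60.1, 58.1 and 58.1 CPM in dKO libraries, against 25.1, 22.2 and 21.8 CPM in WT (log2 fold change 1.35 ± 0.09, edgeR adjusted p = 3.71e-06). The groups are far apart, and the gene lies on chromosome 13 (73319838 to 73328542, minus strand). Its exons share 30 bases with Mrpl36 on the other strand, which was also higher, at 28.7 to 34.1 CPM in dKO and 9.80 to 13.3 CPM in WT. Ndufb4, an accessory subunit of the membrane arm, rose by 1.04 ± 0.10. The fall in the uncorrected fit was that of Ndufa10, an accessory subunit of the membrane arm, at 69.7, 67.3 and 67.2 CPM in dKO libraries, against 75.2, 81.4 and 83.3 CPM in WT (-0.23 ± 0.07, edgeR adjusted p = 0.024). The ranges of Ndufa10 are separate but close, and its edgeR call was lost without dKO replicate 1 (adjusted p = 0.0607), without dKO replicate 2 (adjusted p = 0.0782) and without WT replicate 3 (adjusted p = 0.0856).

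Other rises in complex I included those of Ndufa9, Ndufs5, Ndufb2, Ndufb6, Ndufa13, Ndufb8, Ndufb3, Ndufb9, Ndufs4, Ndufa11 and Ndufa8, with log2 fold changes from 0.25 to 0.75. Of these calls Ndufs4 was lost in 5, Ndufa11 in 4 and Ndufa8 in 3 of the 6 fits without 1 library. With the correction Ndufs4 and Ndufb3 did not pass, at 0.03 and 0.05. Accessory members that did not pass were Ndufa1, Ndufa2, Ndufa3, Ndufa5, Ndufa6, Ndufa7, Ndufa12, Ndufab1, Ndufb5, Ndufb7, Ndufb10, Ndufb11, Ndufc1, Ndufc2 and Ndufv3, from -0.23 to 0.35. Ndufab1, the mitochondrial acyl carrier protein, had overlapping ranges and a log2 fold change of 0.03 ± 0.08, and with the correction it turned to -0.23 and was called lower (edgeR adjusted p = 0.0305). Ndufa7, Ndufb5 and Ndufc2 were called lower with the correction too, at -0.23, -0.45 and -0.42, and Ndufv3 was called higher, at 0.22. Ndufa12 shares reads with a near-identical transcript, Gm15920, that held 149% of its own counts, so its value is uncertain.

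Complex II has 4 subunits, of which 3 rose, while over all tested genes 28.6% were called higher. Sdhd, a membrane anchor, was at 147, 148 and 140 CPM in dKO libraries, against 76.0, 75.4 and 83.3 CPM in WT (0.89 ± 0.07, edgeR adjusted p = 1.05e-05). Sdhb, the iron-sulphur subunit, was at 112, 111 and 120 CPM in dKO libraries, against 68.2, 73.8 and 72.5 CPM in WT (0.68 ± 0.07, edgeR adjusted p = 6.04e-05). Sdha, the flavoprotein that oxidizes succinate, was at 261, 259 and 262 CPM in dKO libraries, against 174, 181 and 185 CPM in WT (0.53 ± 0.06, edgeR adjusted p = 8.86e-05). The groups are separate in all 3 genes. Sdhc, the partner anchor of Sdhd, was at 92.4, 102 and 109 CPM in dKO libraries, against 108, 106 and 113 CPM in WT, with overlapping ranges (log2 fold change -0.11 ± 0.08, edgeR adjusted p = 0.274). Sdhc was called lower, at -0.18, when dKO replicate 3 and WT replicate 2 were left out (edgeR adjusted p = 0.0306). The difference between the changes of Sdhc and Sdhd was not tested.

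In complex III all 9 nuclear members had separate ranges, with 7 rises, 1 fall and a median log2 fold change of 0.42. Over all tested genes the dKO range lay above WT in 32.7% and below in 33.0%. Of these genes 28.6% were called higher and 28.7% lower. Uqcrq, a small subunit next to cytochrome b (chromosome 11, 53427922 to 53430831, minus strand), had the largest rise of all members detected in both groups. Its levels were 148, 149 and 151 CPM in dKO libraries, against 41.2, 47.3 and 44.9 CPM in WT (log2 fold change 1.75 ± 0.08, edgeR adjusted p = 3.21e-07), or 3.35-fold. The dKO libraries hardly differ from each other, and every WT library lies far below them. Cyc1, cytochrome c1, was at 122, 121 and 146 CPM in dKO libraries, against 72.6, 74.5 and 72.5 CPM in WT (0.82 ± 0.09, edgeR adjusted p = 5.91e-05). Uqcrfs1, the Rieske iron-sulphur protein, was at 127, 130 and 128 CPM in dKO libraries, against 89.5, 85.05 and 85.1 CPM in WT (0.57 ± 0.07, edgeR adjusted p = 8.82e-05). Both nuclear-encoded catalytic subunits were thus above every WT library in every dKO library. The mitochondrially encoded one, mt-Cytb, was lower in dKO, at -0.37, as given below. The core proteins Uqcrc1 and Uqcrc2 rose by 0.46 and 0.42, and Uqcr10 and Uqcrb by 0.24 and 0.23. Uqcr11 did not pass, at 0.18 ± 0.08, and was called higher with the correction, at 0.23. Uqcrh, the acidic hinge protein that helps cytochrome c1 and cytochrome c interact, fell, at 74.5, 71.7 and 67.4 CPM in dKO libraries, against 87.1, 91.1 and 92.9 CPM in WT (-0.34 ± 0.07, edgeR adjusted p = 0.00347). The calls of Uqcr10 and Uqcrb, at adjusted p = 0.0442 and 0.0456 in edgeR, were lost under DESeq2 and in 4 and 5 of the 6 fits without 1 library, and with the correction for GC content and length neither passed, at 0.20 and -0.08.

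**Figure D2:**
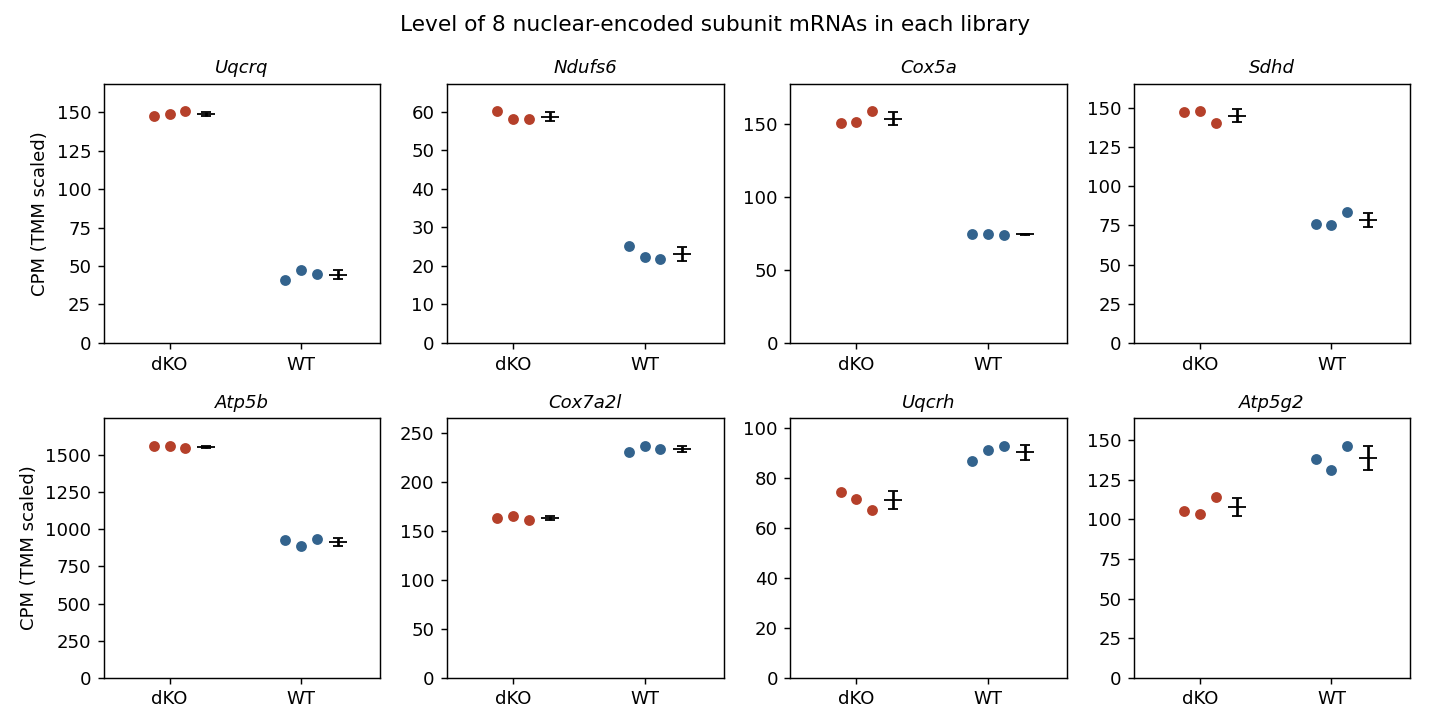
CPM in each library for 8 nuclear members, dKO left and WT right, with the mean ± SD (n = 3) beside each group. In the upper row and for Atp5b the dKO libraries lie above the WT libraries, and for Cox7a2l, Uqcrh and Atp5g2 they lie below. Uqcrq averages 149 CPM in dKO and 44.5 CPM in WT.

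Complex IV has the most tissue-specific isoforms, and 7 of its 20 nuclear members had too few counts to be tested. Of the 13 tested, 9 rose, 2 fell and 2 did not pass. Without Cox6a2, which had no count in WT, 8 of 12 rose, and over all tested genes 28.6% were called higher. The median log2 fold change was 0.48. Cox5a, which sits on the matrix side, was at 150, 151 and 158 CPM in dKO libraries, against 74.3, 74.1 and 74.1 CPM in WT (1.05 ± 0.07, edgeR adjusted p = 2.11e-06). The WT libraries hardly differ from each other and lie far below the dKO libraries. Cox8a, the ubiquitous form of subunit 8, was at 345, 348 and 342 CPM in dKO libraries, against 202, 193 and 185 CPM in WT (0.84 ± 0.06, edgeR adjusted p = 7.29e-06). Cox5b, which binds zinc, rose by 0.74 ± 0.08. Cox7b was at 97.4, 99.7 and 99.3 CPM in dKO libraries, against 69.4, 74.0 and 76.9 CPM in WT (0.43 ± 0.07, edgeR adjusted p = 0.000845), and with the correction for GC content and length it did not pass (0.14, edgeR adjusted p = 0.115). Cox4i1, the common form of subunit 4, was at 527, 544 and 521 CPM in dKO libraries, against 359, 392 and 392 CPM in WT (0.48 ± 0.07, edgeR adjusted p = 0.000277). Cox6b1 was at 114, 111 and 106 CPM in dKO libraries, against 97.1, 94.4 and 91.7 CPM in WT (0.23 ± 0.07, edgeR adjusted p = 0.0197), and this call was lost in 4 of the 6 fits without 1 library and with that correction. Cox7c did not pass, at 0.17 ± 0.08.

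The falls in complex IV were those of Cox7a2l and Cox6c. Cox7a2l, also known as SCAF1, is a Cox7a-like protein that tethers complex III to complex IV in supercomplexes, and it was at 163, 164 and 161 CPM in dKO libraries, against 230, 236 and 233 CPM in WT (-0.52 ± 0.06, edgeR adjusted p = 8.61e-05). Cox6c was at 147, 158 and 133 CPM in dKO libraries, against 209, 206 and 197 CPM in WT (-0.48 ± 0.08, edgeR adjusted p = 0.00072). Neither gene's ranges overlap. Ndufa4, named for complex I but found in complex IV, was at 147, 140 and 136 CPM in dKO libraries, against 130, 129 and 124 CPM in WT, which did not pass (0.14 ± 0.07, edgeR adjusted p = 0.104). Its direction was turned by the correction for GC content and length (-0.17, edgeR adjusted p = 0.0405).

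Isoforms that replace each other in some tissues were compared per transcript length. Cox7a2, the ubiquitous Cox7a form, was at 113, 111 and 109 CPM in dKO libraries, against 63.0, 55.9 and 66.1 CPM in WT (0.85 ± 0.08, edgeR adjusted p = 3.13e-05), opposite to Cox7a2l. Of the summed TPM of the Cox7a family, Cox7a2l made up 46.9%, 47.5% and 47.5% in dKO libraries, against 69.1%, 72.03% and 68.2% in WT. Cox7a1, the muscle form, made up at most 0.169% in dKO and 0.190% in WT. The larger share thus lay with Cox7a2 in every dKO library and with Cox7a2l in every WT library. The exact two-sided permutation p was 0.1, the smallest that 3 libraries against 3 can give. TPM rests on a main transcript for each gene, so the shares depend on that choice.

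Cox6a1, the ubiquitous form of subunit 6a, was at 370, 351 and 355 CPM in dKO libraries, against 181, 213 and 174 CPM in WT (0.92 ± 0.09, edgeR adjusted p = 2.62e-05). Cox6a2, the heart and skeletal muscle form, had 34, 24 and 116 counts in dKO and 0 in all 3 WT libraries. Against a floor of 12 counts per library, which stands for 3 read pairs at about 4 estimated counts each, its mean of 1.39 ± 1.14 CPM in dKO was at least 5.23-fold higher (edgeR adjusted p = 0.0012), and dKO replicate 3 alone was at 2.70 CPM, against 0.890 and 0.590 CPM in the other dKO libraries. Without dKO replicate 3 Cox6a2 was at least 2.77-fold higher, and the edgeR adjusted p was 0.00408. The gene passed the count filter through its dKO counts alone, so these p-values are not independent support for a rise. Cox6a2 made up at most 0.634% of the Cox6a TPM in any library. It was too low to be tested under a stricter count filter, and its call was also lost with counts divided by 4. Itgad, which overlaps Cox6a2 on the other strand, did not exceed 0.0698 CPM. The muscle markers Myh6 and Actc1 were at 0 in all 6 libraries, Myh7, Acta1 and Ckm did not exceed 0.442 CPM, and Tnnt2 was lower in dKO, at 72.5 to 88.8 CPM against 242 to 279 CPM in WT. The brown adipose markers Cidea and Elovl3 were at 0.

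The remaining isoforms were at or near 0. Cox8b, Cox8c and Cox7b2 had no count in any library, which allows up to 0.279 to 0.314 CPM in dKO and 0.243 to 0.298 CPM in WT at the same floor. Ndufa4l2, a hypoxia-induced relative of Ndufa4, had 12 counts in WT replicate 2 and 0 elsewhere. Cox4i2, the lung form of subunit 4, had 0, 0 and 2 counts in dKO libraries, against 14, 7 and 4 counts in WT, and Cox6b2, the testis form, had 0, 8 and 3 counts in dKO libraries, against 0, 0 and 8 in WT. Cox7a1 had 0, 0 and 9 counts in dKO libraries, against 5, 5 and 11 in WT. These genes had too few counts to be tested, with both groups near the floor, and the ranges are separate for Cox4i2, lower in dKO.

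ATP synthase has a catalytic F1 head and an Fo ring and stalk in the membrane. Of its 17 nuclear members 10 rose (58.8%), 1 fell and 6 did not pass, while over all tested genes 28.6% were called higher. The median log2 fold change was 0.34, and with the correction for GC content and length 9 were called higher and 3 lower. Atp5b, the catalytic beta subunit, was the most abundant nuclear member per length in dKO, at 1549 ± 5.995 TPM against 949 ± 23.0 TPM in WT. In CPM it was at 1560, 1562 and 1547 in dKO libraries, against 926, 887 and 937 in WT (0.76 ± 0.06, edgeR adjusted p = 1.01e-05), with the groups far apart. Of the other F1 subunits, Atp5a1 (alpha), Atp5c1 (gamma) and Atp5e (epsilon) rose by 0.34, 0.36 and 0.41, of which Atp5c1 did not pass with the correction (0.14, edgeR adjusted p = 0.109), and Atp5d (delta) did not pass, at -0.02 ± 0.08. Atp5o, the stalk subunit also known as OSCP, was at 140, 140 and 140 CPM in dKO libraries, against 83.0, 78.2 and 96.5 CPM in WT (0.70 ± 0.09, edgeR adjusted p = 0.000147). Atp5j2, subunit f, was at 154, 143 and 152 CPM in dKO libraries, against 101, 96.9 and 107 CPM in WT (0.56 ± 0.07, edgeR adjusted p = 0.000159). Atp5k, Atp5mpl and Atp5j, small subunits of the Fo and stalk part, rose by 0.66, 0.57 and 0.22. The call of Atp5j was lost in 4 of the 6 fits without 1 library, and Atp5mpl was at 0.25 with the correction. Atp5f1, Atp5h, Atp5l and Atp5s did not pass, from -0.07 to 0.23, but Atp5f1 and Atp5h were called lower with the correction, at -0.18 and -0.24.

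The c ring of Fo is built from a single protein that 3 genes encode, and they moved in different directions. Atp5g3 was at 259, 250 and 249 CPM in dKO libraries, against 181, 173 and 190 CPM in WT (0.48 ± 0.07, edgeR adjusted p = 0.00026). Atp5g2 was at 105, 104 and 114 CPM in dKO libraries, against 138, 131 and 146 CPM in WT (-0.36 ± 0.07, edgeR adjusted p = 0.00269). Atp5g1 was at 32.1, 38.9 and 41.8 CPM in dKO libraries, against 33.3, 29.1 and 30.7 CPM in WT, with overlapping ranges (0.28 ± 0.12, edgeR adjusted p = 0.0741). Of the summed TPM of the 3 genes, Atp5g2 made up 36.4%, 36.1% and 38.3% in dKO libraries, against 50.4%, 50.6% and 51.0% in WT, and Atp5g3 made up 55.4%, 53.8% and 51.4% in dKO libraries, against 40.6%, 41.1% and 41.0% in WT. The leading gene was thus Atp5g3 in every dKO library and Atp5g2 in every WT library (exact two-sided permutation p = 0.1 for each share, the smallest that the design allows). Near-identical copies held 36.4% of the counts of Atp5g2 and 91.0% of those of Atp5g1. With these copies added, Atp5g3 averaged 44.1% in dKO and 32.3% in WT, and Atp5g2 averaged 41.2% in dKO and 54.8% in WT. Atp5g2 was then still the largest in every WT library, and in dKO replicate 3 Atp5g2 (42.4%) was above Atp5g3 (41.9%).

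**Figure D3:**
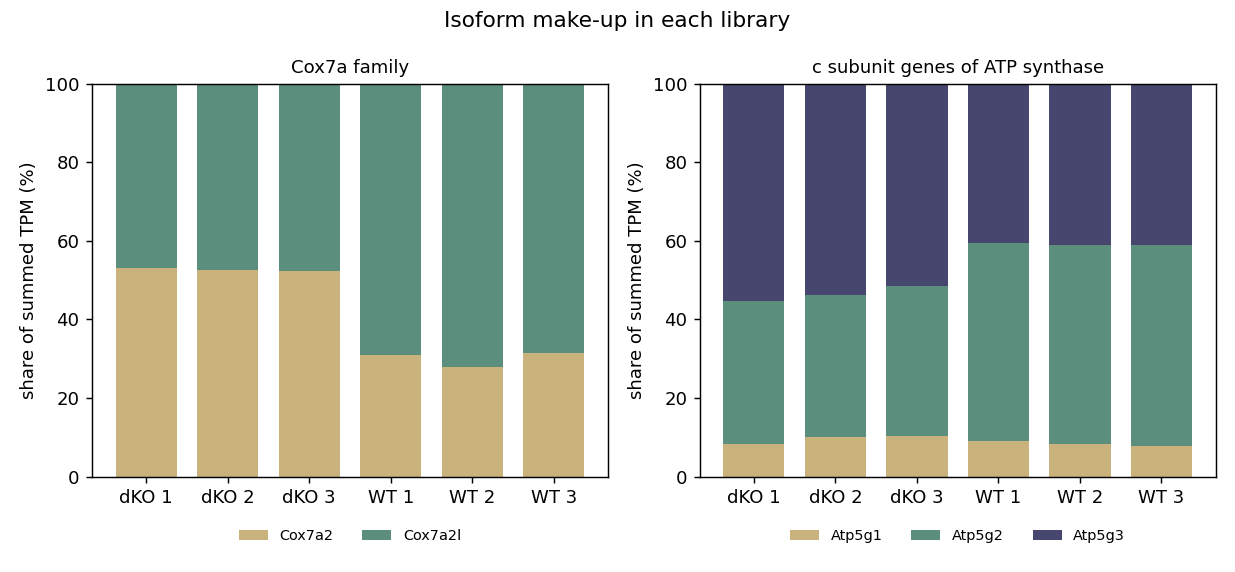
Share of the summed TPM of the Cox7a family (left) and of the c subunit genes of ATP synthase (right) in each library, dKO left and WT right. Cox7a2l makes up 46.9% to 47.5% in dKO and 68.2% to 72.03% in WT, and Atp5g2 makes up 36.1% to 38.3% in dKO and 50.4% to 51.0% in WT. Cox7a1, below 0.2% in each library, is not drawn.

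The 13 mitochondrial mRNAs were each far more abundant per length than most nuclear members, with a median of 3184 TPM in dKO and 4160 TPM in WT, against 184 TPM in dKO and 142 TPM in WT for the 78 tested nuclear members other than Cox6a2. They come from polycistronic transcripts, with mt-Nd6 the only one encoded on the light strand, and they differed in direction among themselves. mt-Co1, the catalytic subunit of complex IV and the most abundant, was at 6383, 6385 and 6183 CPM in dKO libraries, against 7884, 7722 and 8314 CPM in WT (-0.34 ± 0.06, edgeR adjusted p = 0.00167). mt-Cytb, cytochrome b of complex III, was at 3474, 3632 and 3444 CPM in dKO libraries, against 4477, 4402 and 4747 CPM in WT (-0.37 ± 0.07, edgeR adjusted p = 0.00113). mt-Co3 was at 1309, 1385 and 1234 CPM in dKO libraries, against 1583, 1706 and 1646 CPM in WT (-0.33 ± 0.07, edgeR adjusted p = 0.0034). These 3 fell with separate ranges and kept their calls in each fit without 1 library. mt-Co2, which holds the CuA site that takes electrons from cytochrome c, rose, at 2517, 2556 and 2226 CPM in dKO libraries, against 1790, 1967 and 1837 CPM in WT (0.38 ± 0.08, edgeR adjusted p = 0.00248).

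Complex I holds 7 of the mitochondrial mRNAs, and none of them passed. mt-Nd1 was at 2892, 2933 and 2493 CPM in dKO libraries, against 2364, 2520 and 2565 CPM in WT (0.16 ± 0.08, edgeR adjusted p = 0.124), with dKO replicate 3 inside the WT range. It was called higher without dKO replicate 3 (0.23, edgeR adjusted p = 0.0129). mt-Nd4 was at 2011, 2045 and 2027 CPM in dKO libraries, against 2183, 2110 and 2358 CPM in WT (-0.13 ± 0.07), and mt-Nd3 was at 261, 269 and 209 CPM in dKO libraries, against 278, 305 and 270 CPM in WT (-0.21 ± 0.10). In both genes the ranges are separate by a small gap. mt-Nd2 was at 1775, 1797 and 1508 CPM in dKO libraries, against 1750, 1716 and 1886 CPM in WT, and mt-Nd5 at 1542, 1377 and 1353 CPM in dKO libraries, against 1360, 1034 and 1459 CPM in WT. mt-Nd4l was at 352, 360 and 329 CPM in dKO libraries, against 367, 300.1 and 393 CPM in WT, and mt-Nd6 at 413, 405 and 384 CPM in dKO libraries, against 392, 375 and 413 CPM in WT. The groups overlap in these 4. The complex V mRNAs overlapped too, with mt-Atp6, the proton channel subunit, at 2411, 2368 and 2137 CPM in dKO libraries, against 2194, 2345 and 2260 CPM in WT, and mt-Atp8 at 473, 533 and 394 CPM in dKO libraries, against 437, 420 and 503 CPM in WT. dKO replicate 3 was the lowest dKO library for 12 of the 13 mRNAs.

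**Figure D4:**
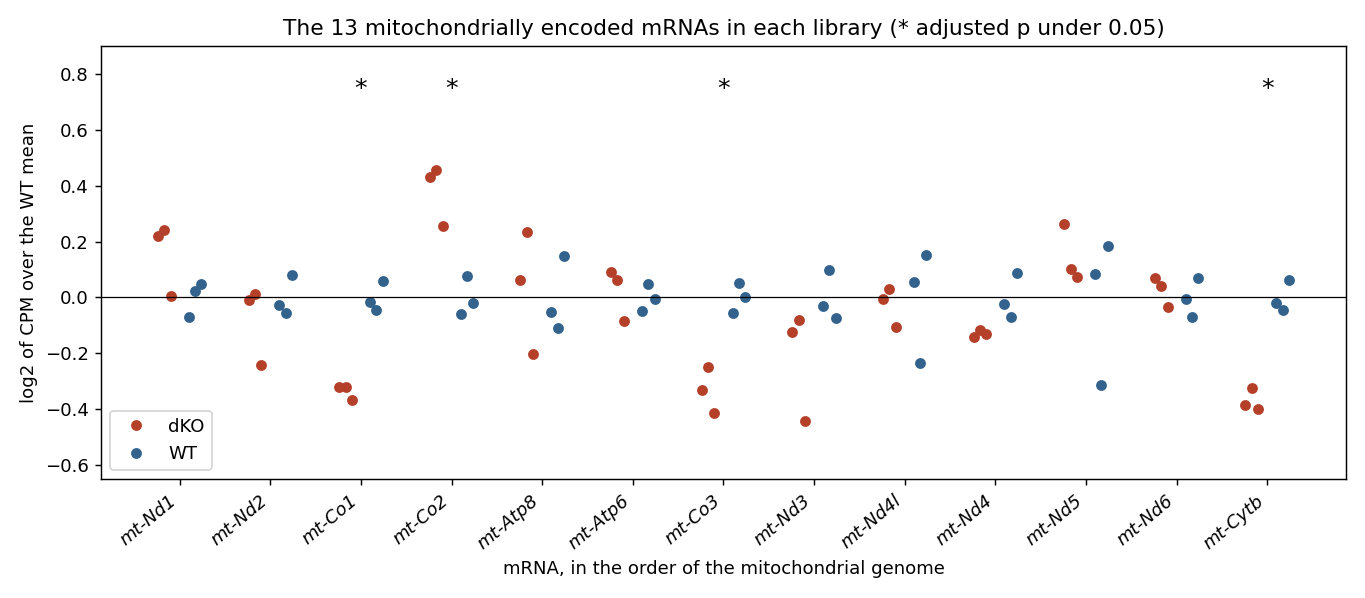
Level of each mitochondrial mRNA as log2 of its CPM over the mean of the WT libraries, in genome order, dKO points left of WT points, 3 libraries a group. Asterisks mark an adjusted p under 0.05. mt-Co1, mt-Co3 and mt-Cytb lie below the WT libraries and mt-Co2 above them, and dKO replicate 3, the right point of each dKO group, is often the lowest.

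The calls of the mitochondrial mRNAs depended on a correction for GC content and transcript length together, and the part of each was not tested. Their main transcripts have a GC content of 31.9% to 41.1%, below the median of 51.7% of the tested nuclear members. Their median length is 784 bases, against 786 for the 78 tested nuclear members other than Cox6a2 and 2806.5 for all tested protein-coding genes. The correction was fitted on genes outside the mitochondrial genome. With a correction for GC content and length, 10 of the 13 were called lower and none higher, with a median log2 fold change of -0.31, and mt-Co2 was at 0.11 (edgeR adjusted p = 0.195). mt-Co1, mt-Co3 and mt-Cytb were called lower in both fits, at -0.57, -0.60 and -0.62 with the correction. mt-Atp6, mt-Atp8 and mt-Nd6 changed from slightly positive values to -0.23, -0.22 and -0.23 and were then called lower (edgeR adjusted p = 0.0122, 0.0391 and 0.00596). Under the same correction 42 nuclear members were called higher, 40 of them among the 47, and 13 were called lower, with a median of 0.22. Over all 15807 tested genes the correction called 9265 in either direction, against 9060 without it. Slightly more of these 9265 were higher than lower, and the median log2 fold change of all tested genes was -0.012. mt-Co2 had the highest value of the 13 in both fits, and its rise was called in the uncorrected fit alone.

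A stretch of chromosome 1 (24611535 to 24616197 on GRCm38) holds nuclear copies of 7 mitochondrial mRNAs. For mt-Nd4l, mt-Nd3, mt-Co3, mt-Atp6 and mt-Co2 the annotated copies had 98.98% to 104% of the counts of the mitochondrial gene in dKO and 99.5% to 104% in WT. Partial copies of mt-Nd4 and mt-Co1 had 35.6% and 12.9% in dKO, and 34.7% and 13.6% in WT. The start of mt-Nd3 (chrM:9459-9491) and of its copy Gm28438 (chr1:24613087-24613119, minus strand) show how close they are, with the base that differs in capitals.
mt-Nd3: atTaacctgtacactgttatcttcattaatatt
Gm28438: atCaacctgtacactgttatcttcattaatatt
The T3C difference, counted from 1 at the start of mt-Nd3 with its own base first, is the only mismatch over 345 aligned bases. Whether reads were split between such pairs or counted at both cannot be told apart from the counts, so levels between mitochondrial mRNAs are uncertain while the copies carry nearly the same ratio in both groups. With the copies added, mt-Co2 was at 0.40 (edgeR adjusted p = 0.00205) and again 1 mitochondrial mRNA was called higher and 3 lower. Of the mitochondrial rRNAs, mt-Rnr1 was at 320, 319 and 221 CPM in dKO libraries, against 103, 123 and 110 CPM in WT (1.36 ± 0.14, edgeR adjusted p = 6.28e-05). mt-Rnr2 was at 566, 552 and 329 CPM in dKO libraries, against 340, 331 and 361 CPM in WT, and did not pass (0.49 ± 0.19, edgeR adjusted p = 0.0585). The labels name neither poly(A) selection nor rRNA depletion.

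The nuclear members did not share a level or a length that went with their change. Over the 78 tested nuclear members other than Cox6a2, which share libraries and depth, Spearman's rho of the log2 fold change was -0.06 with the WT TPM, 0.13 with GC content and 0.05 with transcript length, given as descriptions across genes. The log2 fold changes of the 79 tested nuclear members spanned 0.15 to 0.67 from the lower to the upper quartile, and those of all tested genes spanned -0.63 to 0.57. By library, the median deviation of the 79 tested nuclear members from the WT mean, as log2(CPM + 1), was 0.35, 0.32 and 0.33 in dKO libraries, against -0.005, 0.01 and 0 in WT. For the 13 mitochondrial mRNAs it was 0.004, 0.04 and -0.13 in dKO libraries, against -0.03, -0.05 and 0.07 in WT.

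Other genes of the same pathway were taken from lists chosen by function. Electron carriers and their synthesis had 7 of 15 tested genes higher and 1 lower, with a median log2 fold change of 0.40. Cycs, cytochrome c itself, was at 135, 137 and 130 CPM in dKO libraries, against 36.9, 36.9 and 35.3 CPM in WT (1.88 ± 0.07, edgeR adjusted p = 1.37e-07), and Coq5, a methyltransferase of ubiquinone synthesis, rose by 0.90. Complex I assembly factors had 9 of 17 higher and 3 lower (median 0.53), with Timmdc1 at 1.04 and Ecsit at 1.25. For complex IV they had 9 of 21 higher and 2 lower (median 0.31), with the copper chaperone Cox17 at 1.30 and Coa5 at 0.99. Complex III factors had 1 of 6 higher and 2 lower (median -0.27), with Uqcc1 at 0.61 and Uqcc3 at -0.59. Complex II factors had 1 of 4 higher and 1 lower (median 0.19), with Sdhaf3 at 0.73 and Sdhaf4 at -0.59. The complex V list had 1 of 4 higher and 1 lower (median 0.15), with the assembly factor Tmem70 at 0.54 and Atpif1, the inhibitor of ATP hydrolysis, at -0.42. The shares over all genes tested, 28.6% higher and 28.7% lower, apply to each of these counts.

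The tricarboxylic acid cycle, which supplies the electrons, had 10 of 14 enzymes higher and 1 lower (median 0.38), with Idh3a at 1.52 and Dld at 1.118. Pyruvate dehydrogenase and its kinases had 7 of 11 higher and 2 lower (median 0.36), with Pdhx at 1.24 and Dlat at 0.64. Mitochondrial RNA processing genes had 14 of 19 higher and 2 lower (median 0.65), with Rexo2 at 1.08 and Trmt10c, a subunit of mitochondrial RNase P, at 1.15. Mitochondrial DNA replication and transcription genes had 3 of 15 higher and 2 lower (median -0.07). Tfam, the packaging and transcription factor of mitochondrial DNA, was at 39.2, 39.8 and 36.3 CPM in dKO libraries, against 50.7, 52.8 and 54.6 CPM in WT (-0.46 ± 0.08, edgeR adjusted p = 0.00141), and Mterf3 was at 0.75. Mitochondrial ribosomal proteins had 44 of 78 higher and 4 lower (median 0.30), with Mrpl33 at 1.74 and Mrpl16 at 1.35. Cytosolic ribosomal proteins had 32 of 83 higher (38.6%) and 4 lower (median 0.13), with Rplp1 at 0.96 and Rps25 at 0.61. Over all tested genes 28.6% were called higher and 28.7% lower, shares that apply to each count of this paragraph. The mitochondrial DNA replication and transcription list had a share of rises below that of all tested genes. The share of cytosolic ribosomal proteins was close to the 36.3% higher among the 8130 better-expressed genes given above.

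**Figure D5:**
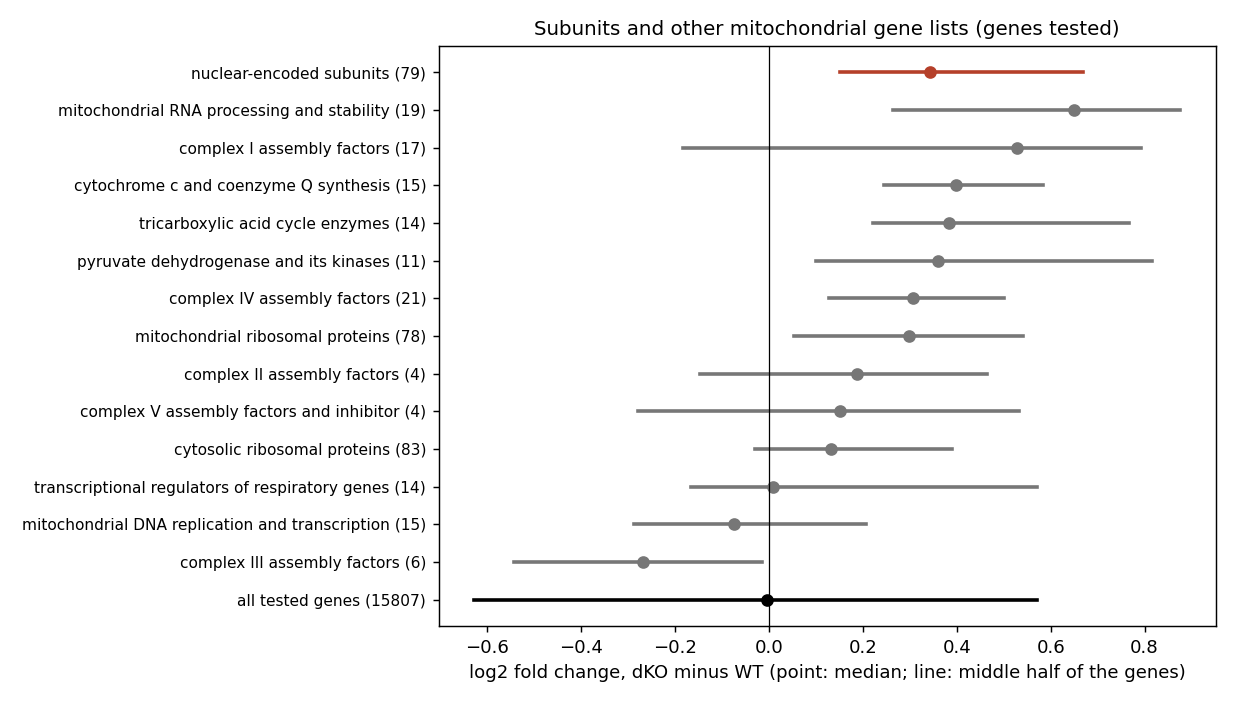
Log2 fold change, dKO minus WT, of the tested nuclear-encoded subunits (top), 13 other gene lists and all tested genes (bottom), with the median as a point and the span from the lower to the upper quartile as a line. The subunits span 0.15 to 0.67 and all genes span -0.63 to 0.57. Numbers of tested genes stand in brackets.

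Known transcriptional regulators of respiratory genes were mixed, with 5 of 14 tested higher (35.7%) and 3 lower (median 0.01). Over all tested genes 28.6% were higher and 28.7% lower, so these counts do not set the regulators apart. Pprc1 and Myc were called higher, at 0.60 and 0.71, and Ppard and Creb1 lower, at -0.88 and -0.39. Esrrb was called higher too, at 8.45, 6.71 and 1.70 CPM in dKO libraries and at most 0.248 CPM in WT. Ppargc1b, the coactivator PGC-1beta, was low but higher in dKO, at 4.37, 3.76 and 5.35 CPM against 1.01, 0.868 and 1.16 CPM in WT (2.14 ± 0.29, edgeR adjusted p = 0.000222). Gabpb1, a partner of the ETS factor GABPA whose letters are marked above, was lower, at 26.1, 20.9 and 24.3 CPM in dKO libraries, against 45.5, 42.2 and 43.2 CPM in WT (-0.88 ± 0.11, edgeR adjusted p = 0.000129). Gabpb2, another partner of GABPA, was higher, at 189, 193 and 196 CPM in dKO libraries, against 144, 120 and 148 CPM in WT (0.485 ± 0.088, edgeR adjusted p = 0.00138). Among regulators named because their letters were searched above, Gabpa, Nrf1 and Yy1 did not pass, at -0.16 ± 0.08, -0.10 ± 0.08 and -0.03 ± 0.07. mRNA levels do not show the activity of these factors, and their part in the changes was not tested.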

How the data were processed

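RNA of the 6 libraries was extracted with Trizol and sequenced with standard Illumina steps, per the labels, which do not name the RNA selection. The authors deposited estimated counts per gene as whole numbers, and HISAT2 2.2.1, StringTie 2.2.1 and GRCm38 (mm10) are named in the submitters' processing notes, while no source used here gives the counting step, its annotation release or whether strand was used. Low counts pile up at 4, so a read pair was taken as about 4 counts, and the floor was set at 12 counts per library for counting error only. Precision is limited by 3 libraries per group at 38194478 to 49630116 counts. Of the 48820 identifiers 48144 matched GENCODE M21 and gave symbols, main transcript lengths and GC content. Genes kept by filterByExpr (15807) were fitted without covariates in edgeR 4.0.16 (R 4.3.3, TMM scaling, robust quasi-likelihood fit), with Benjamini-Hochberg adjustment over all of them and a threshold of 0.05. SEs are approximate, from the fold change and its F statistic. TPM used main transcript lengths. Near-identical copies were found with BLAST+ 2.17.0 (at least 95% identity over 150 bases), for 23 nuclear members and 9 mitochondrial ones, and exons of 30 nuclear members overlap another gene, so reads there may be shared. Alternatives were other scalings, DESeq2 1.42.0, filters, thresholds, a GC and length correction, a replicate block, counts divided by 4, added copies and libraries left out. The fit was tested on simulated data. Members and gene lists were chosen with earlier results of these data known. Values per library are given for the 3 called members of each complex with the lowest adjusted p, for the largest rise and fall, for all of complex II, all mitochondrial mRNAs and all isoform sets, and 2 called genes of each other list are named, those with the lowest adjusted p. Cox6c, Gabpa, Gabpb2, Nrf1, Yy1, Pprc1, Myc, Esrrb, Ppard, Creb1 and members given by fold change alone were named after their values were seen. A complex I member that the rule selects is counted but not reported here.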

Additional observations from a re-analysis of the deposited data

How the results depend on the processing

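Of the alternative values of the genes that the rule for naming selects, 1171 kept their direction and side of the threshold, 44 lost and 11 gained a call, 10 crossed 0 with no call in either fit, and 4 crossed 0 and were then called. A correction for GC content and length called 13 nuclear members lower and 0 mitochondrial mRNAs higher and 10 lower, with a median log2 fold change of nuclear members of 0.222 and a median log2 fold change of mitochondrial members of -0.313. Those 4 came with this correction, Ndufa4 to -0.173, mt-Atp6 to -0.231, mt-Atp8 to -0.223 and mt-Nd6 to -0.231, and the cause was not tested. Over all 15807 tested genes the correction called 9265 in either direction, against 9060 without it. Against a 1.5-fold change, by construction a stricter test, 15 nuclear members were higher and 0 lower, and 0 mitochondrial mRNAs were higher and 0 lower. Without WT replicate 2 and dKO replicate 3 together, 52 nuclear members were higher and 9 lower, and 3 mitochondrial mRNAs higher and 4 lower. In that fit 10139 of 16274 tested genes were called in either direction, against 9060 of 15807 with all libraries. The median log2 fold change of nuclear members was 0.323 in DESeq2 and 0.355 with counts of copies added, an alternative chosen after seeing the data.

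Leaving out 1 library at a time gave 40 to 50 nuclear members higher and 4 to 6 lower, with a median log2 fold change of nuclear members of 0.292 to 0.363, and 1 to 2 mitochondrial mRNAs higher and 3 to 3 lower, with a median log2 fold change of mitochondrial members of -0.104 to 0.021. Of the calls, 40 of 47 nuclear rises, 4 of 5 nuclear falls, and all 4 mitochondrial calls were kept in all 6 of these fits. Same-numbered dKO and WT libraries deviated together with correlations of -0.06, 0.048 and 0.082, so the numbers were not taken as pairs. With the replicate block the counts were 44 nuclear higher, 4 nuclear lower, 1 mitochondrial higher and 3 lower, with medians of 0.342 and -0.018, and 8658 genes were called in all, against 9060 without it.

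Tissue forms of complex IV near the floor of 12 counts per library had too few counts to be tested. Reads shared with nuclear copies limit what levels of mitochondrial mRNAs can show, and counts per gene give no protein amounts or activity.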
